A study of Chlamydomonas reinhardtii with 6 samples.

Results

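Chlamydomonas reinhardtii, a unicellular green alga, adjusts a small set of genes to copper supply through CRR1, a transcription factor that binds DNA and senses the metal. The set examined here was named by gene identifier and comprises CYC6, CPX1, CRD1, CTH1, CTR1 and CTR2. Of these 6 genes, 5 had a row among the 13452 genes of the deposited values table and are described below. CYC6 (Cre16.g651050), the gene for the haem-containing cytochrome c6 that replaces plastocyanin, was not analysed here.

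RNA came from stationary cultures of strain CC-125 (137c mt+), a wild type, kept in the acetate medium TAP under weak white light. In the 1 h UV-B group (3 cultures) a filter with its edge at 311 nm let narrowband UV-B through for 1 h. In the no UV-B group (3 cultures) a filter with its edge at 360 nm stopped it for the same time, so the groups also differ in light between 311 nm and 360 nm. All 6 cultures shared strain, medium, white light and lamp field, and the copper content and oxygen level of the cultures are not stated in the labels. Library totals ran from 7868534 to 11972794 reads. Values are normalised read counts on the deposited CPM-like scale and are not corrected for gene length, so levels of different genes are not compared. They are relative to each library, so a change in all RNA per cell, or in the share of cells that hold a transcript, cannot be told apart from a change in that transcript.

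As background, copper deficiency in this alga switches on CRR1 targets, and several of them also respond to lack of oxygen through the same factor. CPX1 encodes coproporphyrinogen III oxidase, an oxygen-dependent enzyme on the route to haem and chlorophyll. CRD1 and CTH1 encode alternative forms of the oxygen-dependent cyclase that closes the fifth ring of chlorophyll. CRD1 is known as the form of cells short of copper or oxygen, and CTH1 as the form of copper-replete, aerated cells. CTR1 and CTR2 encode membrane proteins of the CTR family, which take up copper ions. CPX1 and CTH1 are each known to give transcripts of different length, and a single value per gene cannot separate them.

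After 1 h of UV-B, CPX1, CTR2 and CTH1 transcripts were higher and those of CRD1 and CTR1 did not pass the test. Thus 3 of 5 genes rose, against 29.5% of the 13415 genes tested, of which 3955 rose and 3965 (29.6%) fell by limma at an adjusted p below 0.05. The count includes CTH1, known as the form of copper-replete cells, so it does not describe a shared rise of genes induced by lack of copper. In total 59.0% of all genes tested passed, so a call is common in these libraries. The median log2 fold change was 0.79 over the 5 genes, which is the value of CTH1 itself, and 0.00037 over all genes tested. Values of UV-B and no UV-B libraries did not overlap for the 3 raised genes. The same held for 63.2% of all genes tested, 31.7% with higher and 31.6% with lower values after UV-B. Log2 fold changes are those of log2(value + 1), UV-B over no UV-B, so changes of weakly expressed genes are understated.

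**Figure D1:**
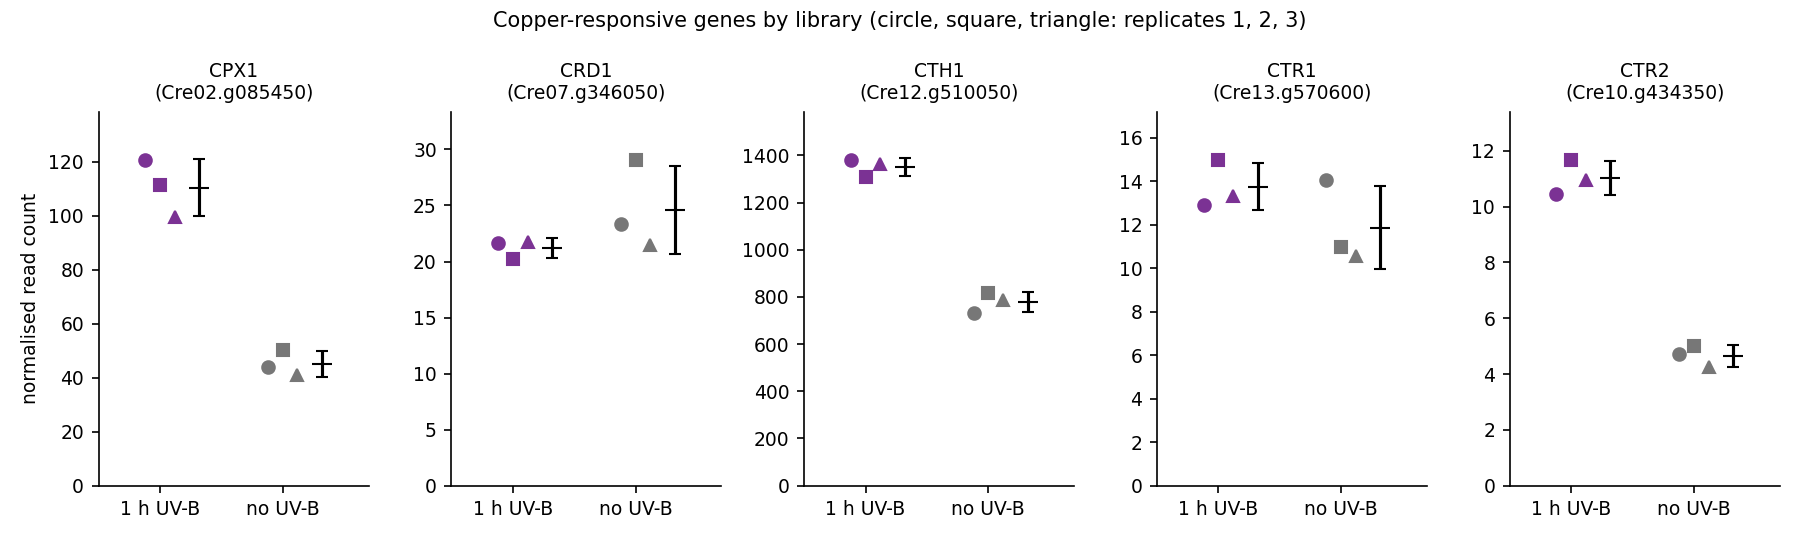
Normalised read counts (vertical axes, from 0) of each copper-responsive gene in the 1 h UV-B and no UV-B libraries. Symbols are single libraries and bars are the mean ± SD of 3. CPX1, CTH1 and CTR2 separate the groups, whereas CRD1 and CTR1 overlap.

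Among the enzymes, CPX1 (Cre02.g085450) gave 120, 111 and 99.5 in the UV-B libraries, against 44.0, 50.3 and 40.8 in the no UV-B libraries. Each UV-B library lay well above each no UV-B library. The means were 110 ± 10.5 with UV-B and 45.0 ± 4.81 without (SD, n = 3 each), which is 2.45-fold in the means. The log2 fold change was 1.28 ± 0.08 (SE; limma adjusted p = 6.09e-14), with a 95% interval of 1.10 to 1.45. Only 457 of the genes tested (3.41%) had a higher log2 fold change. In the authors' deposited table CPX1 had a log2 fold change of 1.31 and a false discovery rate of 1.77e-41. The gene rested on 3557 reads over the UV-B libraries and 1273 over the others.

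CTH1 (Cre12.g510050), the cyclase form of copper-replete cells, gave 1379, 1310 and 1364 with UV-B, against 733, 817 and 789 without. The groups were far apart relative to their spread, with means of 1351 ± 36.6 with UV-B and 780 ± 42.6 without (SD, n = 3 each). The log2 fold change was 0.79 ± 0.07 (SE; limma adjusted p = 7.0e-11), a 1.73-fold rise with a 95% interval of 1.57-fold to 1.92-fold. A rise of this size is below the 2-fold limit of the authors' deposited table, where CTH1 is not listed. With 43804 reads in the UV-B libraries and 22363 in the no UV-B libraries, CTH1 was the most deeply read of the 5 genes, and counting alone would give a coefficient of variation of 0.828% with UV-B and 1.16% without.

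CRD1 (Cre07.g346050), the cyclase form of copper-deficient cells, gave 21.7, 20.2 and 21.8 with UV-B, against 23.4, 29.0 and 21.5 without. The UV-B libraries lay close together, and no UV-B replicate 2 stood above the others. The means were 21.2 ± 0.875 with UV-B and 24.6 ± 3.94 without (SD, n = 3 each). The log2 fold change of -0.19 ± 0.11 (SE) did not pass the test (limma adjusted p = 0.115). Its 95% interval runs from 0.752-fold to 1.02-fold, which includes no change and a fall, whereas the interval of CTH1 lies wholly above it. The value depended on single no UV-B libraries: without replicate 3 it was -0.28 and passed the test (limma adjusted p = 0.0374), and without replicate 2 it was -0.07 (limma adjusted p = 0.599).

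The balance of the cyclase genes can be read within each library, where the scaling of libraries cancels in the percentages. In the log2 ratios it cancels only approximately, because 1 is added to each value. CRD1 amounted to 1.57%, 1.54% and 1.60% of the CTH1 value in the UV-B libraries, against 3.19%, 3.55% and 2.72% in the no UV-B libraries. These percentages compare values that are not corrected for gene length, so their change between groups is informative and their level is not. The log2 ratio differed by -0.99 between UV-B and no UV-B, and every UV-B library was below every no UV-B library. This difference is the log2 fold change of CRD1 (-0.19) less that of CTH1 (0.79). It therefore restates those values, and most of it is the rise of CTH1. A two-sided exact permutation test over libraries gave p = 0.1, the smallest that 3 against 3 allows.

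The ratio of CPX1 to CTH1 also separated the groups, and its difference likewise restates the log2 fold changes of both genes. The CPX1 value was 8.73%, 8.49% and 7.29% of the CTH1 value with UV-B, against 6.0%, 6.15% and 5.18% without. The log2 ratio was 0.48 higher in the UV-B libraries, with no overlap between groups (exact two-sided permutation p = 0.1, the smallest possible).

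**Figure D2:**
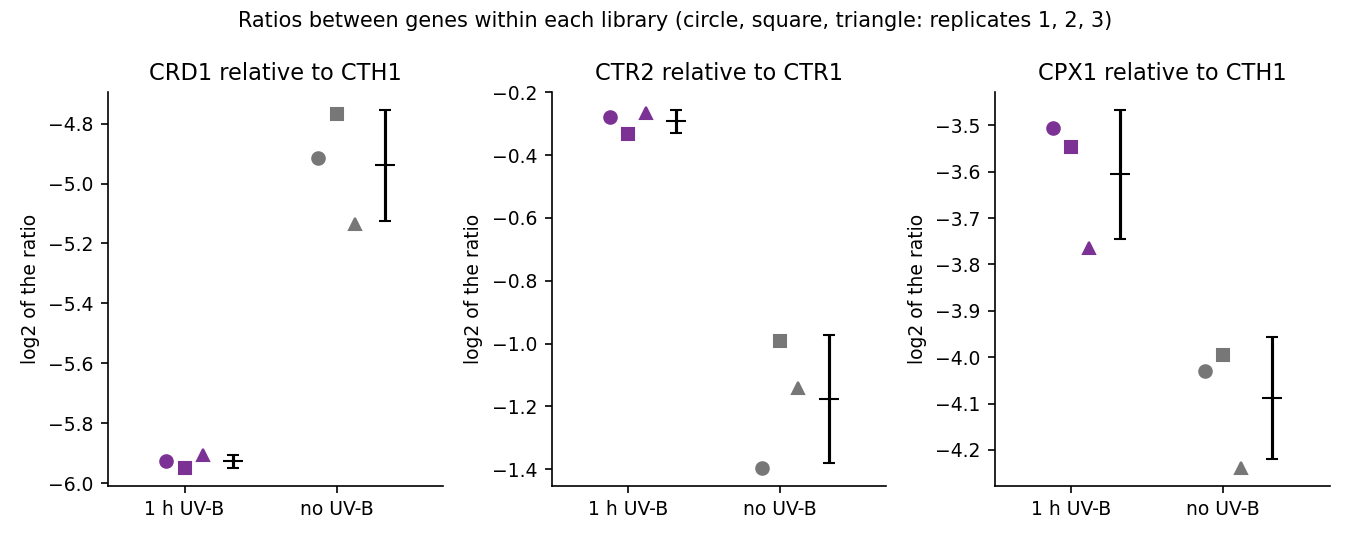
Log2 ratio of the values of 2 genes (vertical axes, each value plus 1; the axes do not start at 0) within each 1 h UV-B and no UV-B library. Symbols are single libraries and bars are the mean ± SD of 3. The difference between UV-B and no UV-B is -0.99 for CRD1 to CTH1, 0.88 for CTR2 to CTR1 and 0.48 for CPX1 to CTH1, each without overlap between groups.

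Of the copper transporter genes, CTR2 (Cre10.g434350) gave 10.5, 11.7 and 10.9 with UV-B, against 4.72, 5.01 and 4.24 without. All UV-B libraries were above all no UV-B libraries. The means were 11.0 ± 0.601 with UV-B and 4.66 ± 0.390 without (SD, n = 3 each), or 2.37-fold in the means. The log2 fold change was 1.09 ± 0.14 (SE; limma adjusted p = 1.09e-07). The authors' deposited table describes it as a CTR type copper ion transporter and lists a log2 fold change of 1.26 with a false discovery rate of 1.66e-13. The gene was read shallowly, with 111, 113 and 132 reads in the UV-B libraries and 43, 38 and 51 in the others, so counting alone would give a coefficient of variation of 9.18% with UV-B and 15.1% without.

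CTR1 (Cre13.g570600) gave 12.9, 15.0 and 13.3 with UV-B, against 14.0, 11.0 and 10.6 without. The groups overlapped because no UV-B replicate 1 lay among the UV-B libraries. The means were 13.7 ± 1.08 with UV-B and 11.9 ± 1.91 without (SD, n = 3 each). The log2 fold change of 0.20 ± 0.13 (SE) did not pass the test (limma adjusted p = 0.162), and its 95% interval runs from 0.965-fold to 1.38-fold. Without no UV-B replicate 1 it was 0.32 and passed (limma adjusted p = 0.0435). With libraries scaled to an equal total it was 0.30 and also passed (limma adjusted p = 0.0461).

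Within libraries, the CTR2 value was 81.0%, 77.9% and 82.0% of the CTR1 value with UV-B, against 33.6%, 45.8% and 40.2% without. The log2 ratio was 0.88 higher with UV-B and the groups did not overlap (exact two-sided permutation p = 0.1, the smallest possible). This difference, too, restates the log2 fold changes of both genes. At these low values its size depended on the pseudocount, with 1.01 at a pseudocount of 0.1 and 0.57 at 5. Adjusted over the 3 ratios compared, each p remained 0.1. This ratio and that of CPX1 to CTH1 were chosen after the values had been seen. How reads matching more than 1 gene of the CTR family or both cyclase genes were assigned is not stated, so how their signal is divided remains uncertain.

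**Figure D3:**
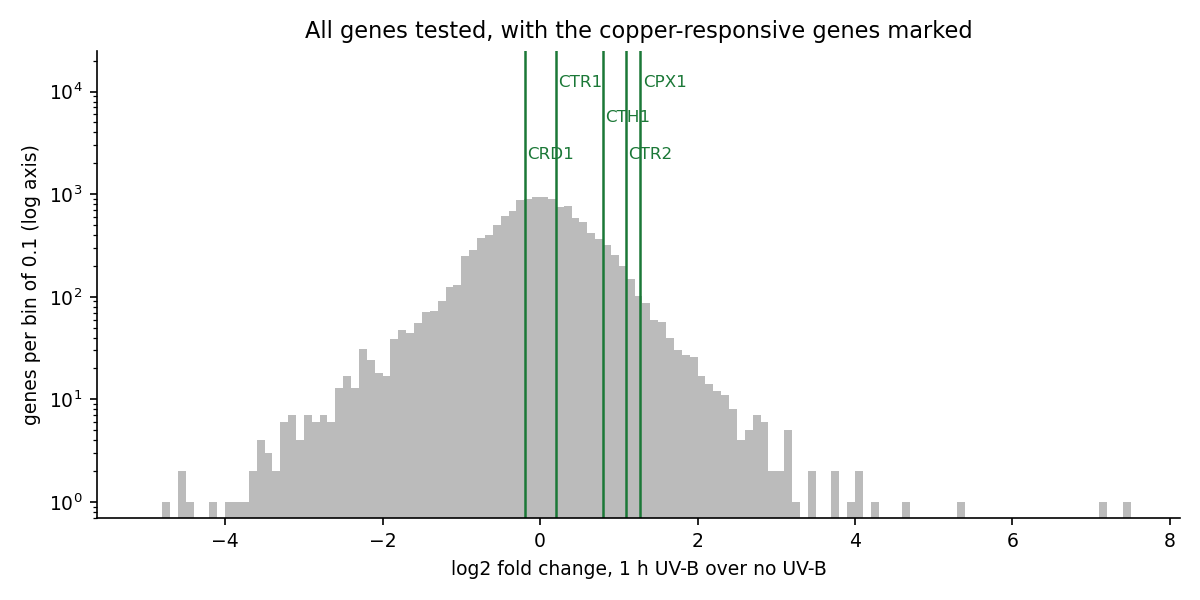
Log2 fold changes of the 13415 genes tested (horizontal axis; genes per bin on a log axis), with vertical lines at the copper-responsive genes. CRD1 and CTR1 lie near the centre, and CTH1, CTR2 and CPX1 at 0.79, 1.09 and 1.28 on the upper side.

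Of 16 other identifiers of tetrapyrrole and chlorophyll synthesis, the pathway that holds CPX1 and the cyclase genes, 12 rose, 3 fell and 1 did not pass, with a median log2 fold change of 0.65. The share that rose over all genes tested was 29.5%. The files describe 4 of the 16, all of them raised. These 4 come from the authors' table of genes changed more than 2-fold, so their passing is no independent evidence. The authors' own tetrapyrrole category in that table, chosen after the data had been seen, holds 11 genes with CPX1 among them, of which 8 rose and 3 fell. The 3 that fell in that category are Cre11.g474800, described as an ornithine transaminase, with 9.06 ± 1.95 in UV-B libraries and 51.5 ± 1.37 in no UV-B libraries (SD, n = 3 each), the heme oxygenase gene g11682, with 3.77 ± 0.332 in UV-B libraries and 8.22 ± 0.476 in no UV-B libraries, and Cre02.g113850, a further gene described as porphobilinogen deaminase. Glutamate-1-semialdehyde aminotransferase (Cre03.g158000), which makes aminolevulinic acid, the shared precursor, was at 214 ± 18.8 with UV-B and 83.2 ± 3.77 without (SD, n = 3 each). Porphobilinogen deaminase (Cre16.g663900), which links porphobilinogen units into a chain, was at 236 ± 9.34 with UV-B and 116 ± 3.18 without. The gene Cre02.g113850, with the same description, went the other way. It had 0.614 ± 0.220 in UV-B libraries and 2.10 ± 0.799 in no UV-B libraries (log2 fold change -0.92, limma adjusted p = 0.000341). It passed the filter on low values through the no UV-B group. For magnesium chelatase, which puts magnesium into the ring for chlorophyll, subunit H (CHLH1, Cre07.g325500) had a log2 fold change of 1.10 ± 0.07 (SE) and subunit I (Cre12.g510800) one of 1.09 ± 0.08.

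Against these 16 genes, CPX1 had a higher log2 fold change than 15 and CTH1 than 11, whereas CRD1 was higher than 2 only. The other 12 carry no description in the files and were placed in the pathway from general knowledge of the alga's genes. Their log2 fold changes ran from -0.70 to 0.80, and 8 of them rose. The 3 that fell include genes with small changes, and with libraries scaled to an equal total 1 gene of the list fell.

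The genes known for induction without oxygen went the other way. Of 11 identifiers chosen, 8 were tested and these 8 fell, where 29.6% of all genes tested fell. One of them, the hybrid-cluster protein gene (Cre09.g391650), had 0.471, 0.619 and 0.663 in UV-B libraries and 41.2, 43.5 and 43.8 in no UV-B libraries. It passed the filter on low values through the no UV-B group alone, so it had to differ, and without any 1 no UV-B library it was not tested and 7 genes fell. The files describe 7 of them, again through the authors' table of genes changed more than 2-fold, so their passing is no independent evidence. The list was chosen with earlier results of these data known. The iron hydrogenase genes, whose enzymes make hydrogen, were at 70.4 ± 7.08 with UV-B and 442 ± 9.06 without (Cre03.g199800), and at 28.0 ± 1.37 with UV-B and 97.6 ± 4.96 without (HYDA2, Cre09.g396600). Pyruvate-formate lyase (PFL1, Cre01.g044800), a fermentation enzyme, was at 132 ± 14.0 with UV-B and 707 ± 3.27 without. Acetate kinase (Cre09.g396700), which makes ATP from acetyl phosphate, was at 1.52 ± 0.269 with UV-B and 19.1 ± 0.353 without. CPX1 therefore rose in the same libraries in which these genes fell, and CRD1 did not pass the test. The oxygen level of the cultures was not tested.

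**Figure D4:**
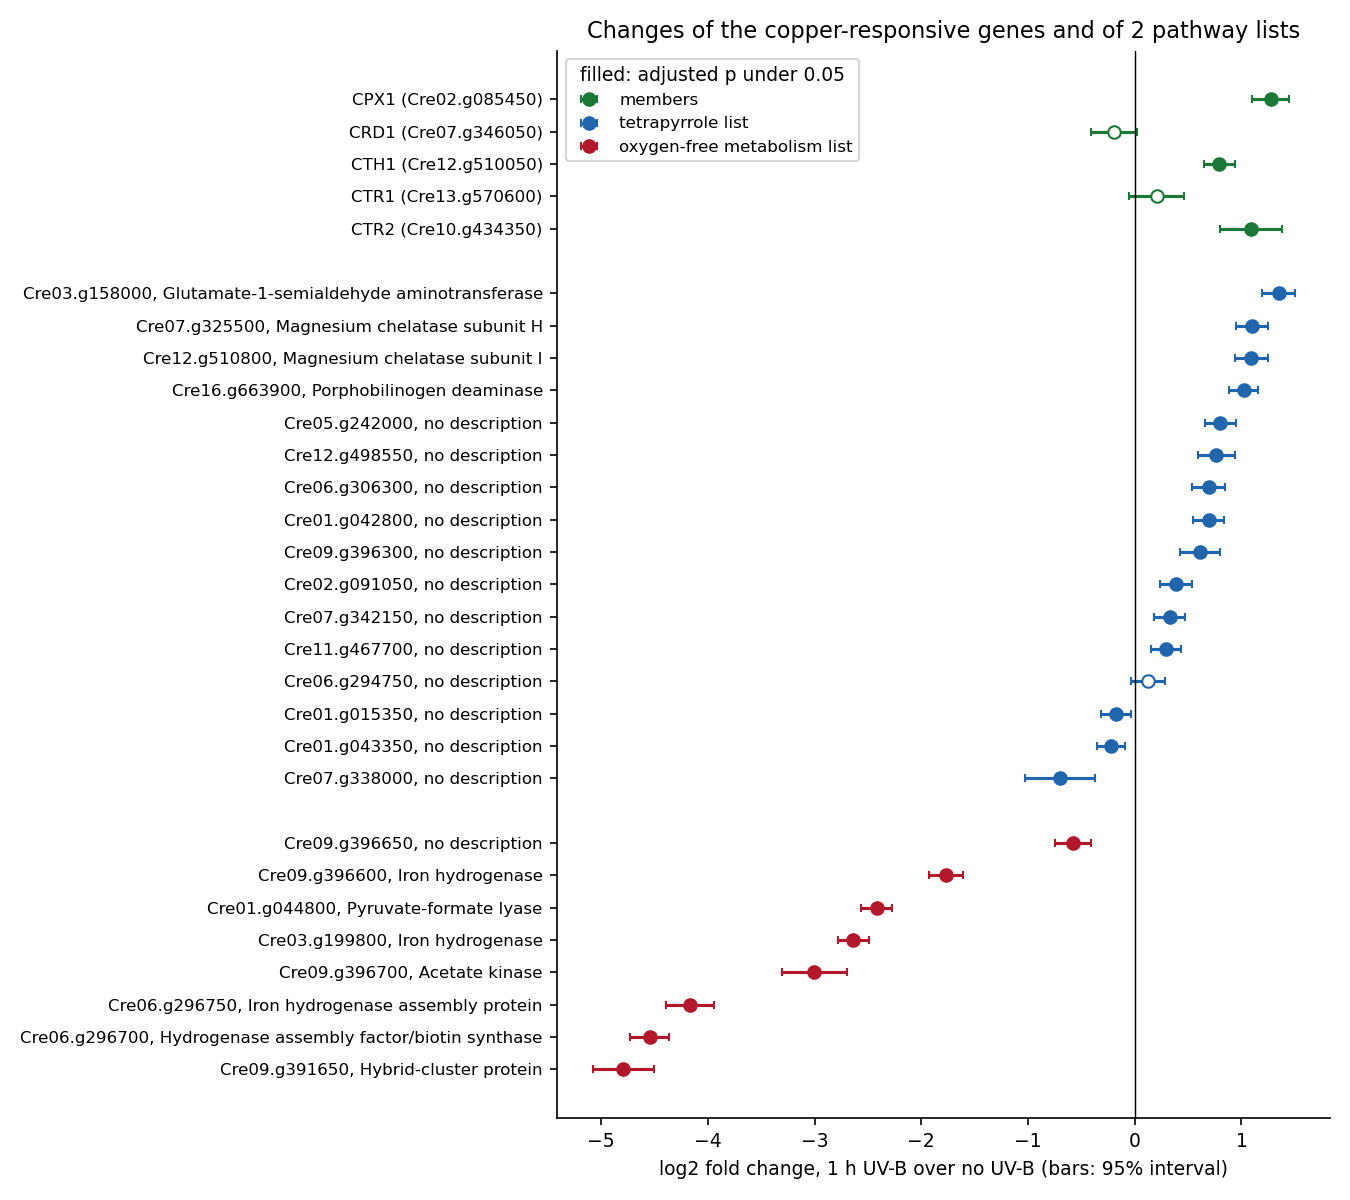
Log2 fold changes, 1 h UV-B over no UV-B (horizontal axis, bars: 95% interval), of the copper-responsive genes, 16 tetrapyrrole identifiers and 8 identifiers known for induction without oxygen. Filled symbols passed an adjusted p below 0.05. The tetrapyrrole genes lie between -0.70 and 1.35 and the genes known for induction without oxygen between -4.79 and -0.58.

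The authors' deposited table places 9 genes under metal transport, of which 5 rose and 4 fell; they are there because they changed more than 2-fold, and the category was chosen after the data had been seen. CTR2 is the only one described by copper. A putative manganese transporter of the NRAMP family (Cre07.g315200) was at 32.9 ± 2.76 with UV-B and 9.67 ± 0.531 without (SD, n = 3 each). A transporter described as responsive to zinc nutrition (Cre07.g355150) was at 19.2 ± 2.53 with UV-B and 6.92 ± 0.157 without. A zinc and iron transporter gene (Cre06.g281900) fell to 3.07 ± 0.933 with UV-B, against 8.55 ± 0.597 without.

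Of 9 further identifiers for iron and copper uptake and copper proteins, 4 were tested, with 1 higher and 3 lower, where 29.5% of all genes tested were higher and 29.6% lower. The 1 described in the files is an Fe-assimilating protein gene (Cre12.g546550), with values of 0.660, 0.206 and 2.40 in UV-B libraries and 0.768, 2.77 and 5.82 in no UV-B libraries. Its groups overlapped, and its log2 fold change was -0.91 ± 0.32 (SE, limma adjusted p = 0.0161). It no longer passed without UV-B replicate 1 (limma adjusted p = 0.0614) or UV-B replicate 2 (0.171). Nor did it pass by limma with the robust option (adjusted p = 0.321), limma without trend (0.145) or DESeq2 (0.267). Of 7 identifiers for electron carriers beside cytochrome c6, 3 were tested and none of the 3 is described. Cre06.g306350 was at 61.6 ± 4.91 with UV-B and 39.9 ± 2.28 without. Cre11.g476750 had a log2 fold change of -0.16 and passed narrowly (limma adjusted p = 0.0430), which it did not do without UV-B replicate 1 (0.163) or 3 (0.0505), or without no UV-B replicate 1 (0.0828), 2 (0.128) or 3 (0.0663). The remaining gene did not pass.

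The genes adjacent to the copper-responsive genes in the RefSeq gene order are given as a description. Of 10 adjacent genes, 9 were tested. By limma 4 fell, 5 did not pass and 0 rose, and the same count of 0 rises was obtained at an unadjusted p below 0.05, with edgeR and with DESeq2. Over all genes tested 29.5% rose and 29.6% fell. Beside CPX1, Cre02.g085500 had a log2 fold change of -1.11, with 3.84 ± 1.01 in UV-B libraries and 9.37 ± 1.35 in no UV-B libraries (SD, n = 3 each). Beside CTH1, Cre12.g510100 had a log2 fold change of -0.04 and Cre12.g510034 one of -0.19, neither of which passed. Beside CTR2, Cre10.g434400 fell by 0.50 on the log2 scale and Cre10.g434300 did not pass.

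**Figure D5:**
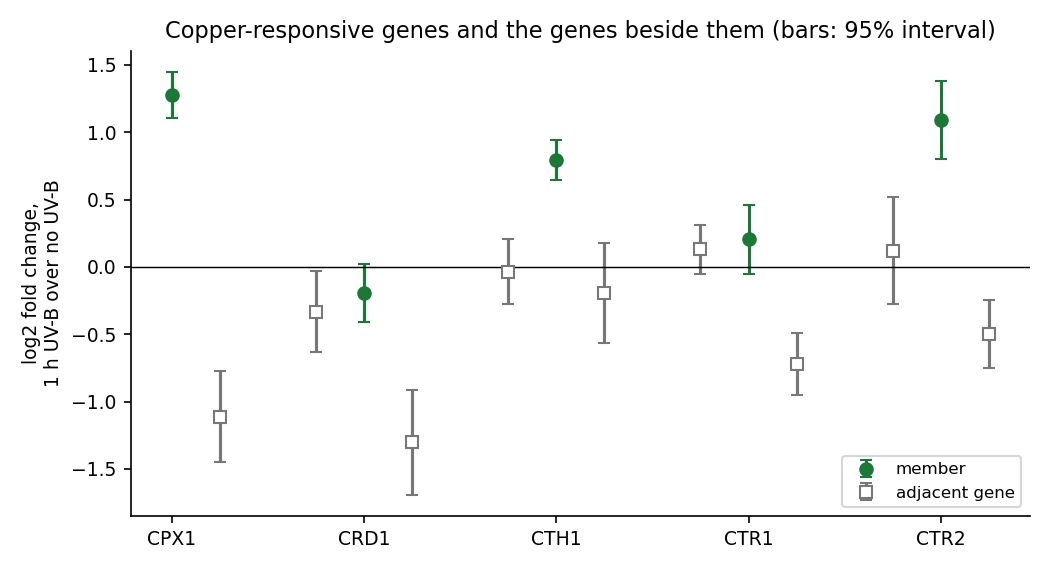
Log2 fold changes, 1 h UV-B over no UV-B (vertical axis, bars: 95% interval), of the copper-responsive genes (filled circles) and of the genes beside them (open squares). The adjacent genes lie between -1.30 and 0.13, below the values of CPX1, CTH1 and CTR2.

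Likeness to each gene was measured as the Euclidean distance between log2(value + 1) profiles centred on their mean, over the 6 libraries, among described genes of the authors' table with a mean of at least 10. Since that table holds genes changed more than 2-fold and the profiles mainly follow the group difference, these neighbours are a description. The nearest to CPX1 was a gene for a protein required for assembly of cytochrome b6 (Cre12.g537850, distance 0.145), at 55.4 ± 2.79 with UV-B and 23.1 ± 2.78 without. The next was a predicted protein (Cre12.g510850, 0.203). The nearest to CTR2 were an ABC transporter-like gene (g11711, 0.126) and a methyltransferase of ubiquinone and menaquinone synthesis (Cre02.g084300, 0.129). For CTH1 they were a deoxyhypusine hydroxylase (Cre10.g435550, 0.236) and a Rab-related GTPase (Cre01.g047550, 0.250). For CRD1 the nearest was Cre01.g028250 (0.980) and for CTR1 Cre05.g245000 (0.941). Because the genes searched were those changed more than 2-fold, genes with small changes such as CRD1 and CTR1 could have no near one among them.

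The spread among replicates differed between the genes. In the UV-B libraries the coefficient of variation ran from 2.71% (CTH1) to 9.52% (CPX1), and in the no UV-B libraries from 5.46% (CTH1) to 16.1% (CTR1). For CRD1 it was 4.12% with UV-B and 16.0% without, where counting alone would give 6.60% with UV-B and 6.59% without. The no UV-B spread was also above counting error in CPX1 (10.7% against 4.85%), CTH1 (5.46% against 1.16%) and CTR1 (16.1% against 9.42%), and below it in CTR2 (8.37% against 15.1%). The UV-B spread was above counting error in CPX1 (9.52% against 2.90%) and CTH1 (2.71% against 0.828%). It was below counting error in CTR1 (7.86% against 8.23%) and CTR2 (5.46% against 9.18%). Differences in spread were not tested.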

How the data were processed

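RNA of 6 cultures was sequenced from stranded mRNA libraries made from 400 ng of total RNA, per the labels' protocols. The submitters' processing notes name TopHat2, HTSeq 0.5.3p9 and edgeR 3.4.2. Build, gene models, strand setting and handling of shared reads are not stated. The authors deposited a signal per gene, a normalised read count close to CPM. For 2596 genes the authors deposited the log2 fold change, the p-value with its false discovery rate, and any description.

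Members and lists were chosen with earlier results of these data known. Named genes were all members, most described list genes, and genes from the 2 nearest profiles per member. Some adjacent genes, genes of the authors' categories and list genes without a description are also named. 1 recalled tetrapyrrole identifier was dropped because its deposited description is of another pathway. Whole reads were recovered from all values within 0.001 reads. No column was left unused (0 columns). Limma 3.58.1 with a mean-variance trend, under R 4.3.3, tested log2(value + 1) of genes reaching 1 in at least 3 libraries, 3 against 3 cultures, Benjamini-Hochberg threshold 0.05. On simulated counts with 200 of 13300 genes changed 2-fold, limma recovered 98.5% of them, and 5.74% of its calls were false. Far fewer genes changed there than were called here, and only genes with ample reads, so the simulation does not give the error rate for these data. Cultures are independent, per the labels. Alternatives were other pseudocounts, filters, scalings and limma options, a replicate block, left-out libraries, and edgeR 4.0.16 (quasi-likelihood) and DESeq2 1.42.0 on the recovered reads. RefSeq gene order of assembly Chlamydomonas_reinhardtii_v5.5 matched 9922 of 13452 identifiers. SciPy 1.17.1 ran the permutation tests. Intervals are those of the limma fit and include the spread between replicate libraries. Coefficients of variation from counting cover counting error only.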

Additional observations from a re-analysis of the deposited data

How the results depend on the processing

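CPX1, CTH1 and CTR2 kept their direction and passed the test in all 19 alternatives, with log2 fold changes of 1.21 to 1.38, 0.75 to 0.90 and 0.73 to 1.25. Their adjusted p was highest by limma without trend, at 3.15e-05 for CPX1, 0.000132 for CTH1 and 2.99e-05 for CTR2. CRD1 ran from -0.28 to -0.075 and CTR1 from 0.13 to 0.32, both ends reached by leaving out 1 library. CTR1 passed with an equal library total (0.30). Within-library differences kept their sign in all 10 alternatives each. Most of these could not have changed it. The groups did not overlap, so leaving out 1 library keeps the sign, and the replicate block gives the same difference by construction. Only the other pseudocounts could have changed the sign. The cause of these shifts was not tested.

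List counts of few genes moved more. For electron carriers, with an equal library total 2 were higher and 0 lower. By limma without trend 0 were lower, and with edgeR on recovered reads also 0, where 1 was lower in the main test. Genes called in all numbered 7627 without trend, 6396 with a minimum value of 5 and 8102 with the replicate block, against 7920. Leaving out 1 library gave 7090 to 7426 genes called in all, and 0 to 1 lower electron carriers. Lower tetrapyrrole genes numbered 1 with an equal library total and without trend, against 3. Lower metal genes numbered 1 with a minimum value of 5 and with DESeq2, and 1 to 2 without 1 library, against 3.

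Same-numbered libraries deviated together little (correlations 0.045, 0.024 and 0.12 across genes), so the numbers were not taken as pairs. With the replicate block no call of a member changed: adjusted p was 1.63e-14 for CPX1, 0.109 for CRD1, 1.38e-12 for CTH1, 0.158 for CTR1 and 1.57e-07 for CTR2 (limma). With 3 pairs the ratios allow no exact p below 0.25. Depth limits CTR2 and CTR1 most, with 488 and 781 reads over all libraries.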
